A study of Mus musculus with 53 samples.

Results

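T-cell tumours of mice that lack E2A were set directly against T-cell tumours of mice that carry a Tal1 transgene, to see where the Tal1 tumours resemble the loss of E proteins and where the classes part. The samples were chosen by genotype label alone. They are 4 E2A-deficient tumours (2 labelled E2A knock out and 2 labelled rag E2A knock out) and 5 Tal1-driven tumours (2 labelled Tal1 transgenic and 3 labelled Tal1-LMO2 double transgenic), or 9 of the 53 arrays in the series. The series measured RNA of T-cell lymphoblastic tumours from 15 genetic backgrounds, with 1 array per sample. By their labels all 9 tumours are of the C57BL/6 strain, consist of T-cell lymphoblasts and are negative for TLX1, with no treatment. The other TLX1-negative tumours are 32 arrays of 9 backgrounds: LMO1, olig-LMO1 (olig1 in one label and olig2 in another), beta-catenin, Nup98HoxD13, Pokemon and ThPOK transgenic, Ikaros Plastic, p53 knock out, and Cdkn2a knock out with retroviral insertional mutagenesis. Another 12 arrays carry a TLX1 transgene. They do not say which Rag gene is deleted, what drives the transgenes, or that the samples of a background came from separate animals. The p-values therefore reflect no more than sample-to-sample spread, part of which may be technical.

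E2A, encoded by Tcf3, is a basic helix-loop-helix transcription factor of the E protein family, whose members bind E-box sequences as dimers and drive early T-cell development. TAL1 is a basic helix-loop-helix factor of blood stem cells and red cells that pairs with E proteins in place of a second E protein. It binds DNA together with LMO1 or LMO2, LDB1 and GATA factors, and its ectopic expression in thymocytes is a known route to T-cell leukaemia, as is the loss of E2A in mice. Id proteins, the natural inhibitors of E proteins, pair with them and cannot bind DNA.

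Few genes passed the test between the classes. Of 9156 genes tested, 5 were called between them by limma (Benjamini-Hochberg adjusted p under 0.05), which is 0.0546% of genes, with 1 higher (0.0109%) and 4 lower (0.0437%) in E2A-deficient tumours. At an unadjusted p under 0.05, 497 genes differed (5.43%), of which 235 were higher (2.57%) and 262 lower (2.86%) in E2A-deficient tumours. In 168 genes (1.83%) the values of the classes did not overlap, 66 higher (0.721%) and 102 lower (1.11%). The mean difference reached 2-fold in 71 genes (0.775%), and the median gene differed by 0.09 in absolute log2 units. For 8516 genes (93.0%) the 95% confidence interval of the difference lay within 1 log2 unit of 0 on both sides, so for these genes a difference above 2-fold lay outside the interval.

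Similarity of whole profiles was compared within and across the classes. Over the 9156 genes, the Pearson r between an E2A-deficient and a Tal1-driven tumour averaged 0.940 (20 pairs, 0.917 to 0.961). Pairs of E2A-deficient tumours averaged 0.948 (6 pairs) and pairs of Tal1-driven tumours 0.941 (10 pairs). With the 32 tumours of 9 other TLX1-negative backgrounds, r averaged 0.864 for E2A-deficient and 0.869 for Tal1-driven tumours. The nearest other background was NUP98-HOXD13, at 0.921 for E2A-deficient and 0.924 for Tal1-driven tumours. The single most similar array lay within the own class for 4 of the 9 tumours, in the opposite class for 4, and in a NUP98-HOXD13 tumour for rag E2A knock out replicate 4. These correlations share probe content and pairs share arrays, so they are a description without a test.

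**Figure D1:**
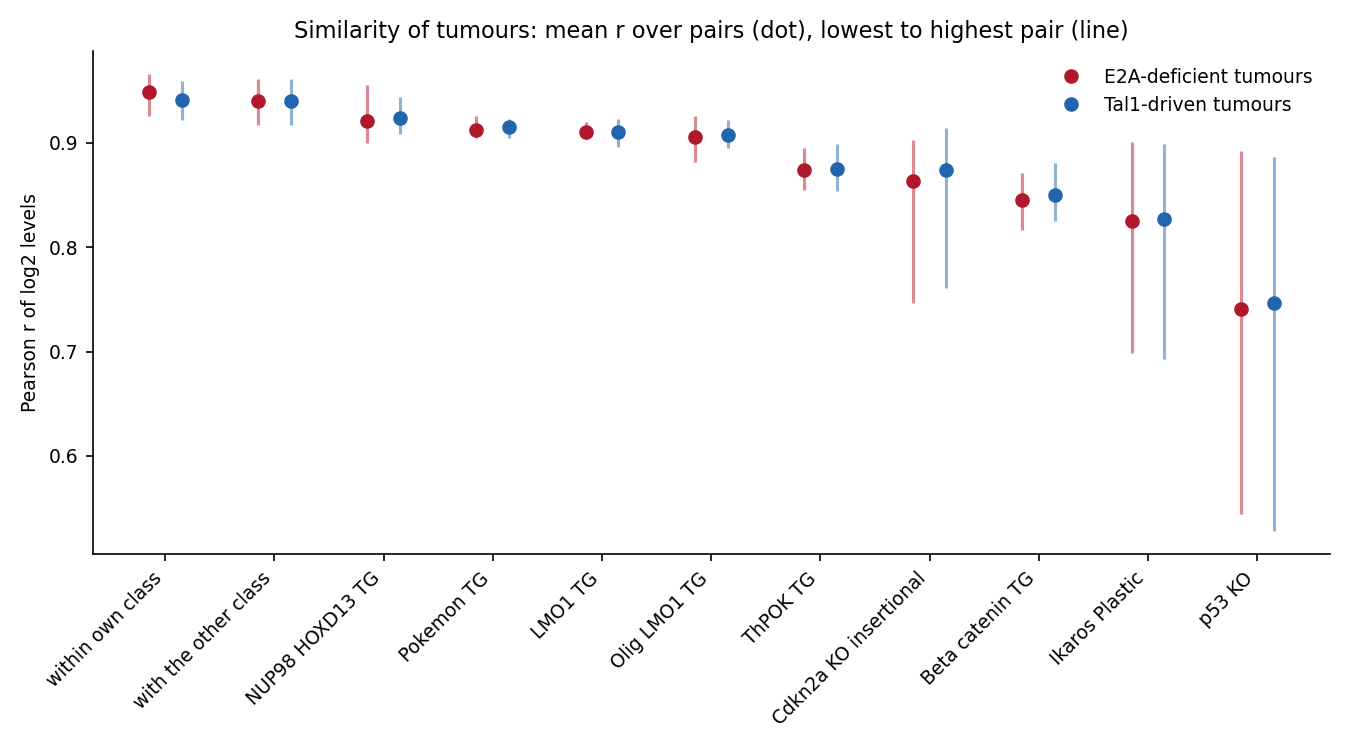
Pearson r of log2 levels (vertical axis) between E2A-deficient (red) or Tal1-driven (blue) tumours and their own class, the other class and each of 9 other backgrounds. Dots are means over pairs and lines run from the lowest to the highest pair; means with the other class (0.940) lie next to those within the classes (0.948 and 0.941) and above all those with other backgrounds.

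All 9 arrays also shared a technical feature. On the 45 bacterial control probe sets, which read spiked-in RNA, they fell into 1 cluster of 16 arrays when 2 or 3 clusters were made, and into a cluster of just these 9 when 4 or 5 were made. The 7 other arrays of the 16 were 3 ThPOK, 2 p53 knock out, 1 Nup98HoxD13 and 1 Pokemon array. A bioB control read 10.85 to 11.50 log2 units in E2A-deficient tumours and 10.78 to 11.48 in Tal1-driven tumours, against 7.95 to 10.73 in the other 32. Array medians ran from 445 to 481 intensity units over the 9 arrays. None of 5 quality measures passed a test between E2A-deficient and Tal1-driven tumours (exact permutation tests, two-sided, 126 regroupings, smallest p = 0.1429, 0.7143 after Benjamini-Hochberg adjustment). The comparison between the classes thus lies within 1 array set, while for both classes against other backgrounds, array set and genotype cannot be told apart in full.

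Expression of the targeted genes was read in every tumour. Tcf3, the gene of E2A, measured 9.53 and 10.05 log2 units in E2A knock out and 10.04 and 9.79 in rag E2A knock out tumours, against 10.49 and 10.94 in Tal1 and 11.47, 11.14 and 10.70 in Tal1-LMO2 tumours. Every E2A-deficient value lay under every Tal1-driven value. The difference was -1.10 ± 0.20 (SE; 95% interval -1.53 to -0.66), with a limma adjusted p of 0.217, so Tcf3 did not pass the threshold between the classes. Of 15 settings, counting the main one, Tcf3 passed in 2: with the spread of all 53 arrays (adjusted p 0.00369) or when the beta-actin ratio entered the fit (0.041). The adjusted p reached 0.783 in the others. It passed in 0 of 9 fits that each left out 1 tumour (adjusted p 0.0921 to 0.555). On its other probe sets the classes did not overlap either, with differences of -1.79 ± 0.25 and -1.65 ± 0.23. Against the other backgrounds Tcf3 was lower by 0.84 in E2A-deficient tumours (difference -0.84 ± 0.17, adjusted p 0.000611), and Tal1-driven tumours differed by 0.26 (adjusted p 0.198). Where these probe sets lie relative to the deleted part was not stated.

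Neither transgene was visible on its mouse probe set. Tal1 read 7.75 to 8.06 in E2A-deficient tumours and 7.67 to 8.21 in Tal1-driven tumours, under the median of each array, and did not pass the filter on low values. Lmo2, a LIM-domain partner of TAL1, read 7.93, 7.77 and 7.87 in Tal1-LMO2 tumours, within the 7.75 to 7.95 of E2A-deficient tumours and under the 8.63 and 8.48 of Tal1 tumours. The species and extent of the transgenes are not given, so these values do not check the Tal1 and LMO2 labels. Rag1, a recombinase subunit of developing lymphocytes, read 12.15 and 11.89 in rag E2A knock out tumours and 12.47 and 11.98 in E2A knock out tumours, and Rag2, the other subunit, 9.32 and 9.16 against 9.77 and 8.38. Which of the pair is deleted and which part of it the probe sets read are not given, so these values do not check the Rag label either.

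The starts of 4 of the 5 genes called between the classes are shown, because E proteins and TAL1 dimers bind E-boxes. The windows are 300 bases around the RefSeq gene start on GRCm38.p6, 5′ to 3′ on the gene's strand. Capitals mark E-box forms: CAGCTG, which is its own complement, then CAGGTG, read on the other strand as CACCTG, and lastly CAGATG, read on the other strand as CATCTG. Gpr162 is given without a sequence. The windows span chr15:6708131-6708430 (plus strand) for Rictor, chr15:98482634-98482933 (minus strand) for Lalba, chr4:133518713-133519012 (plus strand) for Kdf1 and chr14:57104653-57104952 (minus strand) for Gjb2.
Rictor: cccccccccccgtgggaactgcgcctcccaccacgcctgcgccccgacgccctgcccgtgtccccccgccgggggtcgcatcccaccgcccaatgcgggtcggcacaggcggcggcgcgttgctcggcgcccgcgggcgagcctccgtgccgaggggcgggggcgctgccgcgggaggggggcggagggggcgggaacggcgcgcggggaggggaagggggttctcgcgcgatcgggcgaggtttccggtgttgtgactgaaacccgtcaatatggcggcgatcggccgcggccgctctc
Lalba: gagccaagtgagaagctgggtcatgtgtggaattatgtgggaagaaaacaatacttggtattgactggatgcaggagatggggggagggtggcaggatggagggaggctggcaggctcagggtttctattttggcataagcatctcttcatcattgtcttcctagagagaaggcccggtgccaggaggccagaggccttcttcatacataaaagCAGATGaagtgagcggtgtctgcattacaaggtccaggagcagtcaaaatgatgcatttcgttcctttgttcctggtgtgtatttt
Kdf1: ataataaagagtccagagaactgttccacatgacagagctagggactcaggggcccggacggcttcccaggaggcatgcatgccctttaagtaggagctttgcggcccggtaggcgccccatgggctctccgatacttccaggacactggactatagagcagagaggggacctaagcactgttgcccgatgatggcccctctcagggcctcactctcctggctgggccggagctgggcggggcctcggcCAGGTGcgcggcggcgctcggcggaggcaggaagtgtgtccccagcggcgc
Gjb2: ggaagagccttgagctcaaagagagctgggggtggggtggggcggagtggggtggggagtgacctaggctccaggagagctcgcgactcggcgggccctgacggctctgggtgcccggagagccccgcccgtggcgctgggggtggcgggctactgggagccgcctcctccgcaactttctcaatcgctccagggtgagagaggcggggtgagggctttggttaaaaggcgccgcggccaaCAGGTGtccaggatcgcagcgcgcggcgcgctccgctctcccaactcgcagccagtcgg

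The Lalba window holds 1 CAGATG, and the Kdf1 and Gjb2 windows 1 CAGGTG each. The Rictor window holds none of these letters. Among 7382 tested genes with a promoter entry, 37.2% held at least 1 of the forms. The share was 14.6% for CAGCTG, 17.4% for CAGGTG on either strand and 11.7% for CAGATG on either strand. Among the genes named by rule for the comparison of the classes, 4 of 8 higher and 4 of 6 lower genes with an entry held one. A match is a string of letters and no evidence of binding.

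Rictor, a core subunit of the mTORC2 kinase complex, carried the largest called difference. It read 7.87 and 7.66 log2 units in E2A knock out and 7.97 and 7.50 in rag E2A knock out tumours, against 9.54 and 10.13 in Tal1 and 9.59, 9.63 and 9.55 in Tal1-LMO2 tumours. The classes stood apart with a gap wider than the range of either. The difference was -1.94 ± 0.15 (SE), or 3.83-fold lower in E2A-deficient tumours (limma adjusted p 0.000676).

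Lalba, which encodes the milk protein alpha-lactalbumin, followed the same course. It read 7.96, 7.92, 7.98 and 7.68 in the 4 E2A-deficient tumours, against 9.22, 9.81, 9.40, 9.49 and 9.51 in the 5 Tal1-driven tumours. No values overlapped. The difference was -1.60 ± 0.12 (adjusted p 0.000676). Both genes kept their call when any of the 9 tumours was left out (adjusted p 0.000661 to 0.00609 for Rictor and 0.000914 to 0.00609 for Lalba), and each rests on 1 probe set.

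High levels were also found outside the Tal1-driven tumours. Rictor averaged 9.84 ± 0.42 in Tal1 (SD, n = 2) and 9.59 ± 0.04 in Tal1-LMO2 tumours (n = 3), and 9.56 ± 0.16 in LMO1, 9.39 ± 0.28 in Olig-LMO1 and 9.31 ± 0.11 in beta-catenin tumours (n = 3 each). E2A knock out tumours averaged 7.76 ± 0.15 and rag E2A knock out tumours 7.74 ± 0.33 (n = 2 each), inside the 7.01 to 8.55 of the tumours of the other 8 backgrounds. Lalba was high in the same 5 backgrounds, with means of 9.52 in Tal1, 9.47 in Tal1-LMO2, 9.83 in LMO1, 9.66 in Olig-LMO1 and 9.22 in beta-catenin tumours. Its means in the other 10 ran from 7.83 in rag E2A knock out to 8.60 in TLX1 tumours with RUNX heterozygosity.

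**Figure D2:**
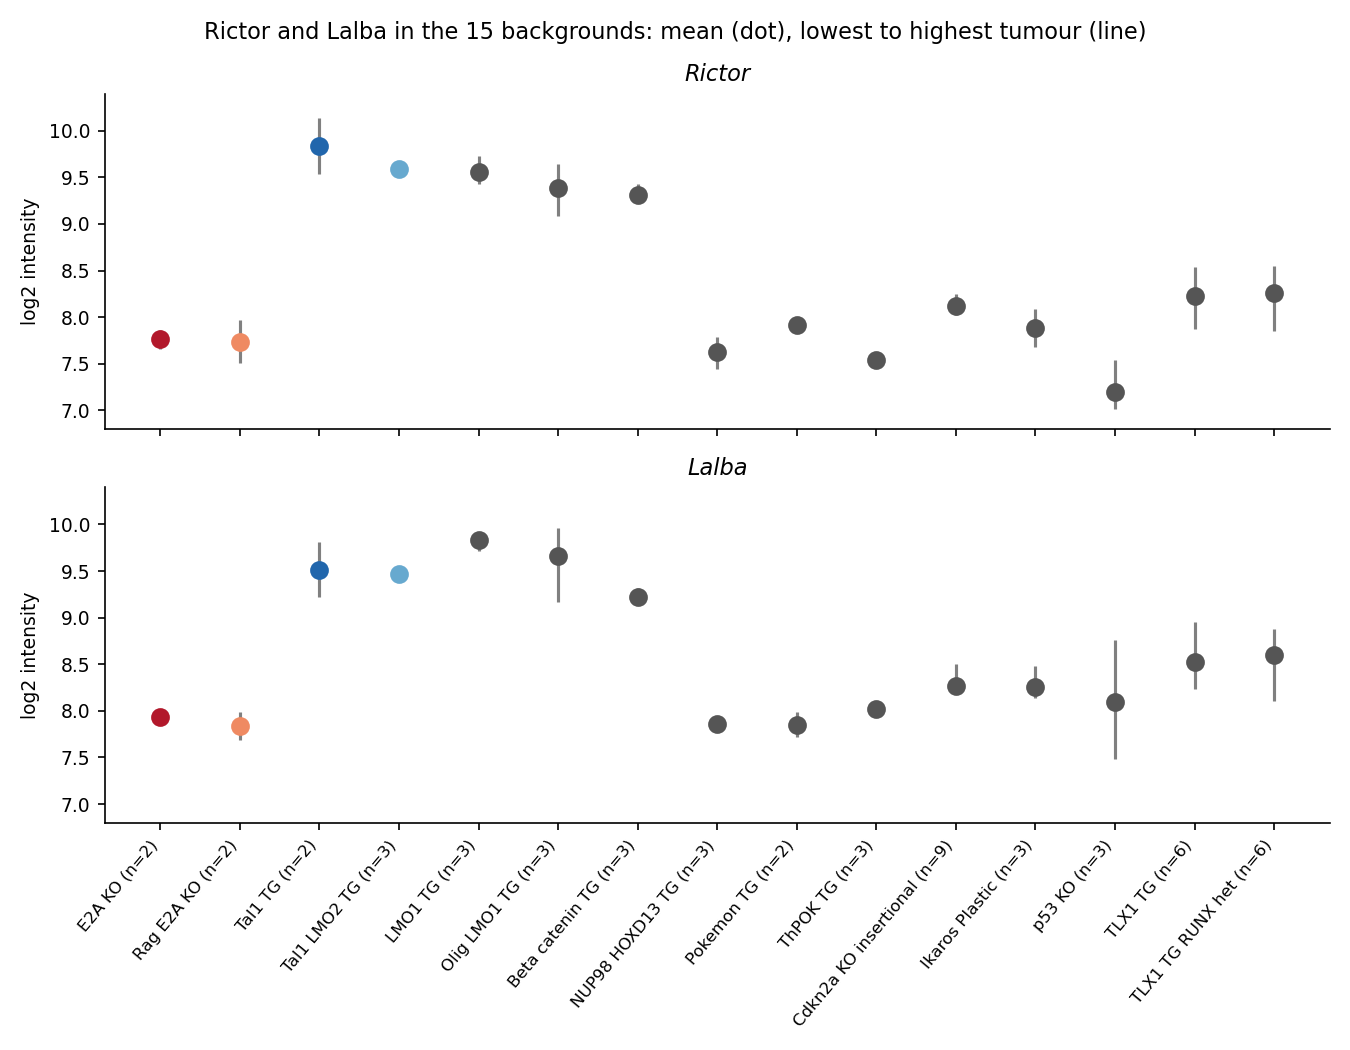
Rictor and Lalba in log2 intensity (vertical axes) in the 15 backgrounds, with dots for means and lines from the lowest to the highest tumour. E2A knock out and rag E2A knock out tumours (red, orange) lie low with most backgrounds, while Tal1, Tal1-LMO2 (blue), LMO1, Olig-LMO1 and beta-catenin tumours lie above 9.

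Kdf1, a regulator of keratinocyte differentiation, read 8.51, 8.34, 8.19 and 8.40 in E2A-deficient tumours, against 9.13, 9.43, 9.10, 9.41 and 9.28 in Tal1-driven tumours. Its difference was -0.91 ± 0.11 (adjusted p 0.0189). A further Kdf1 probe set of lower signal differed by 0.07 ± 0.08. Gpr162, an orphan G protein-coupled receptor, read 9.93, 9.84, 9.95 and 9.97 in E2A-deficient tumours, against 10.46, 10.80, 10.61, 10.62 and 10.63 in Tal1-driven tumours. Its difference was -0.70 ± 0.09 (adjusted p 0.0211). Gjb2, which encodes the gap junction protein connexin 26, was the sole gene called higher: 8.53, 8.92, 8.52 and 8.82 in E2A-deficient tumours, against 7.89, 7.60, 7.87, 7.70 and 7.82 in Tal1-driven tumours, a difference of 0.93 ± 0.11 (adjusted p 0.0211).

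None of these 3 genes overlapped between the classes, but the calls rest on few tumours. Kdf1 kept its call in 3 of 9 fits that each left out 1 tumour (adjusted p up to 0.0826), Gpr162 in 1 of 9 (up to 0.124) and Gjb2 in 4 of 9 (up to 0.0939). The call was lost for all 3 without E2A knock out replicate 2, rag E2A knock out replicate 4, Tal1 replicate 2, or Tal1-LMO2 replicate 2 or 3. Kdf1 and Gpr162 also lost it without rag E2A knock out replicate 3, and Gpr162 without E2A knock out replicate 1 or Tal1-LMO2 replicate 1. The low class of Rictor, Lalba and Kdf1 (E2A-deficient) and of Gjb2 (Tal1-driven) lay under the array medians of 8.80 to 8.91, so these genes passed the filter on low values through tumours in which they are higher, and low signal limits how well their lower level is known. The Gjb2 values of 8.53 in E2A knock out replicate 1 and 8.52 in rag E2A knock out replicate 3 also lay under their array medians (8.87 and 8.82). Against the 9 other backgrounds Gjb2 differed by 0.23 in E2A-deficient (limma adjusted p 0.557) and -0.69 in Tal1-driven tumours (0.0341). Kdf1 differed by -0.70 (0.000862) and 0.21 (0.224) in the same order. In other backgrounds Gpr162 had means from 9.41 to 10.95 and was highest in LMO1, Olig-LMO1 and beta-catenin tumours.

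**Figure D3:**
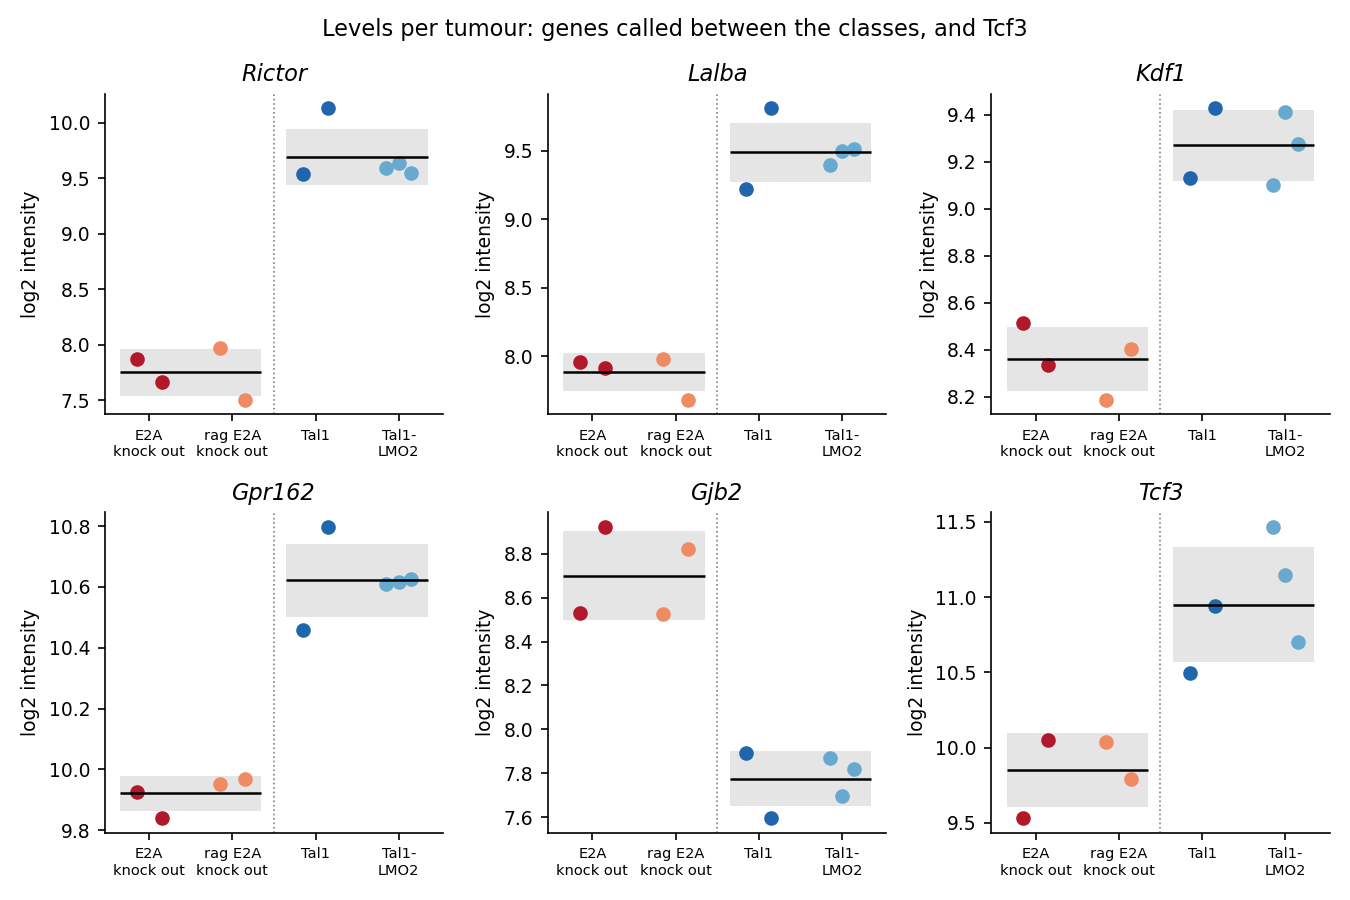
Log2 intensity (vertical axes) of the 5 genes called between the classes and of Tcf3 in each tumour, by genotype. Lines are class means and shaded bands 1 SD (n = 4 and n = 5); in all 6 panels the classes do not overlap, with Gjb2 higher and the rest lower in E2A-deficient tumours.

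The largest non-overlapping differences that did not pass the threshold are given as values. Aldh1b1, a mitochondrial aldehyde dehydrogenase, read 11.15, 11.78, 11.37 and 12.07 in E2A-deficient tumours, against 9.86, 8.06, 7.74, 7.66 and 10.89 in Tal1-driven tumours, a difference of 2.75 (95% interval 1.32 to 4.18, adjusted p 0.453). Its E2A-deficient values were tight, and its Tal1-driven values spread over more than 3 log2 units. Dsp, the desmosome protein desmoplakin, read 10.79, 8.27, 9.19 and 10.23, against 7.47 to 7.66 in Tal1-driven tumours (difference 2.06, adjusted p 0.421). Further Dsp probe sets differed by 1.94 and by 0.34, and on the latter the classes overlapped. Itga9, an integrin subunit, read 8.93 to 10.21 in E2A-deficient and 7.42 to 8.57 in Tal1-driven tumours (1.54, adjusted p 0.264). Its further probe sets differed by 0.94 and 0.24, and the mean of all its probe sets by 0.90. Cyth3, an exchange factor for ARF GTPases, read 9.81 to 10.46 in E2A-deficient and 8.63 to 9.39 in Tal1-driven tumours (1.29, adjusted p 0.0694). Its further probe set differed by 0.11 and the mean of both by 0.70. Stra8, a meiosis gene, differed by 1.25 and Slc45a3, a solute carrier, by 0.98.

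Beside Tcf3, given above, the rule named 3 uncalled genes on the lower side. Jchain, the joining chain of secreted IgM and IgA, read 6.81 to 6.88 in all E2A-deficient tumours, against 7.72, 8.21, 8.63, 8.78 and 10.21 in Tal1-driven tumours (difference -1.86, adjusted p 0.444). The immunoglobulin light chain segment Igkv8-30, named after its values were seen, read 7.30 to 7.42 in E2A-deficient and 8.74 to 11.68 in Tal1-driven tumours (-2.97, adjusted p 0.0964). Slc40a1, the iron exporter ferroportin of macrophages, read 7.21 to 7.42 in E2A-deficient tumours, against 10.46 and 10.07 in Tal1 and 8.43, 7.97 and 7.92 in Tal1-LMO2 tumours (-1.64, adjusted p 0.744). A further Slc40a1 probe set differed by -0.38 ± 0.19, and there the classes overlapped. Fcna, a ficolin of macrophages, read 8.09 to 8.25 in E2A-deficient tumours, against 10.64 and 10.97 in Tal1 and 9.45, 8.97 and 8.67 in Tal1-LMO2 tumours (-1.58, adjusted p 0.667). For Jchain, Igkv8-30, Slc40a1 and Fcna the E2A-deficient values were nearly level and the spread lay among the Tal1-driven tumours. These level values all lay under the E2A-deficient array medians of 8.80 to 8.87, so low signal limits how well they are known. With means of the 4 genotypes, Slc40a1, Fcna and Slc45a3 passed the threshold (adjusted p 0.00815, 0.0123 and 0.047), and Aldh1b1 passed with the spread of all 53 arrays (0.0251). In bulk RNA, fewer cells of a type and less RNA per cell cannot be told apart.

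The E2A-deficient tumours were also set against each Tal1 genotype alone. Against the 2 Tal1 tumours alone, 61 genes were called (0.666% of 9156, 5 higher and 56 lower (0.612%) in E2A-deficient tumours), and against the 3 Tal1-LMO2 tumours alone 3 were called (0.0328%). These fits share the E2A-deficient tumours and differ in size, and the difference between them was not tested. The genes of the Tal1 fit named here were chosen after their values were seen. Lower in E2A-deficient tumours were Fabp4, a fatty acid binding protein of fat and vessels (-3.08), Dcn, the matrix proteoglycan decorin (-2.11), Col1a1, a fibroblast collagen (-1.45), Cdh5, the endothelial cadherin (-1.45), and Tyrobp, a myeloid signalling adaptor (-1.62). Higher were Il2ra (2.46, adjusted p 0.00754), Igf2bp3, an RNA-binding protein (2.23), Nrarp (2.07), Hes1 (1.90) and Cttn, an actin-binding protein (1.57).

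Summed marker levels and a sign of RNA quality are given beside these calls. The 8 myeloid markers summed to 4337 to 5617 intensity units in E2A knock out and 7347 to 8950 in rag E2A knock out tumours, against 11792 to 15180 in Tal1 and 4713 to 7524 in Tal1-LMO2 tumours. The 7 stromal and endothelial markers summed to 2475 to 2885 in E2A knock out and 2940 to 6820 in rag E2A knock out tumours, against 4687 to 6416 in Tal1 and 2363 to 2799 in Tal1-LMO2 tumours. Myeloid sums were thus highest in the Tal1 tumours, whereas the highest stromal sum was in a rag E2A knock out tumour. The 5 measured natural killer markers summed to 1499 to 2229 in E2A-deficient tumours, against 3209 to 3459 in Tal1 and 1557 to 4258 in Tal1-LMO2 tumours. The T lineage sums of the Tal1 tumours were the lowest of the 9: the 7 measured markers summed to 42451 to 42854 in E2A knock out and 36121 to 38822 in rag E2A knock out tumours, against 28387 to 34154 in Tal1 and 36622 to 43230 in Tal1-LMO2 tumours. The 3' over 5' difference of the beta-actin probe sets, which rises as RNA degrades, was 0.23 to 0.56 log2 units in E2A-deficient tumours, against 1.08 and 0.57 in Tal1 and 0.27 to 0.40 in Tal1-LMO2 tumours. The part of these values in the genes called against Tal1 tumours was not tested. The T lineage was plain in all 9: Cd3e, a subunit of the T-cell receptor complex, read 12.37 to 12.68 in E2A-deficient and 12.26 to 12.69 in Tal1-driven tumours. The 5 measured B lineage markers summed to 1054 to 1195 in E2A-deficient and 1175 to 1594 in Tal1-driven tumours.

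The remaining members of the E protein network did not separate the classes by the test. Tcf12, the E protein HEB of thymocytes, read 12.30 to 12.54 in E2A-deficient and 12.28 to 12.68 in Tal1-driven tumours (difference -0.08, interval -0.32 to 0.16). Tcf4, the E protein E2-2, read 9.14 to 10.28 in E2A-deficient and 9.42 to 10.57 in Tal1-driven tumours (-0.23, interval -0.81 to 0.34). Its further probe sets differed by -0.83, -0.75, -0.51, -0.51 and -0.04, and the classes overlapped on each. On the widest, E2A-deficient tumours read 9.26, 6.91, 8.56 and 6.93, against 7.90 to 9.71 in Tal1-driven tumours. Against other backgrounds Tcf4 was called lower in E2A-deficient (-0.59, limma adjusted p 0.0154) and not in Tal1-driven tumours (-0.36, 0.0926). Within the same bacterial-control cluster it was called lower in both (adjusted p 0.0162 and 0.0398). Among the Id inhibitors, Id3 read 11.29, 9.32, 7.72 and 7.79 in E2A-deficient tumours, against 8.47, 8.46, 7.78, 7.91 and 9.90 in Tal1-driven tumours. It was high in E2A knock out replicate 1 and Tal1-LMO2 replicate 3, so the spread lay within the classes. Id1 differed by 0.46 and Id2 by 0.24, and Id4, which failed the filter, by 0.02.

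Of the TAL1 and LMO complex list, 0 of 13 tested members were called (limma; 0 also at an unadjusted p under 0.05), against 0.0546% of all genes. Lmo4, a LIM-only cofactor, had the widest difference, at 0.95 (interval -0.35 to 2.25), with 9.38 to 11.71 in E2A-deficient and 8.75 to 11.52 in Tal1-driven tumours. Lmo1, a LIM-only partner of TAL1, read 7.88, 8.89, 9.33 and 7.70 in E2A-deficient tumours, against 7.77 to 8.21 in Tal1-driven tumours (0.49). Ldb1, the bridging cofactor, differed by 0.07, Lyl1, a relative of Tal1, by -0.02, Runx1 by 0.12, Gata3 by -0.03, Gata2 by -0.03 and Cbfa2t3, a corepressor, by -0.17. Of 7 tested genes known as TAL1 targets in human leukaemia, none was called, and their median difference was 0.04. Trib2, a pseudokinase, was the widest at 0.32.

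Of 11 tested genes that E proteins activate, 0 were called by limma. Of these, 2 were higher at an unadjusted p under 0.05, where 2.57% of all genes were, and the median difference was 0.15, against -0.02 over all genes. Rag1 differed by -0.01 (interval -0.31 to 0.28), Rag2 by 0.05 (-0.61 to 0.71) and Cd3e by 0.12 (-0.15 to 0.38). Ptcra, the pre-T-cell receptor chain, read 11.39, 8.45, 9.85 and 12.23 in E2A-deficient tumours, against 10.34, 9.46, 10.10, 8.15 and 10.82 in Tal1-driven tumours. Its spread within each class exceeded the difference of 0.70. Cd4, the helper co-receptor, differed by 0.55 and Cd8a, the killer co-receptor, by -0.36. The 6 tested genes that E proteins repress had a median of 0.18, led by Id2 (0.24) and Cdk6, a cyclin-dependent kinase (0.21).

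The Notch list was the one with the most members leaning to E2A-deficient tumours. Notch receptors drive T-cell commitment and are often activated in T-cell leukaemia. Of 15 tested members none was called, and 5 (Nrarp, Il2ra, Notch1, Notch2 and Notch3) were higher at an unadjusted p under 0.05, where 2.57% of all genes were. The median difference was 0.31. Nrarp, a Notch target that restrains Notch signalling, read 11.68, 10.79, 10.96 and 11.05 in E2A-deficient tumours, against 8.88 and 9.23 in Tal1 and 9.67, 9.90 and 10.59 in Tal1-LMO2 tumours. The classes did not overlap (difference 1.47 ± 0.32, limma adjusted p 0.444). On a further Nrarp probe set they overlapped and differed by 1.37 ± 0.32. Notch1, the receptor itself, read 12.78, 13.00, 13.44 and 13.31 in E2A-deficient tumours, against 12.33, 12.48, 12.84, 12.90 and 12.61 in Tal1-driven tumours (0.50, adjusted p 0.756). A further Notch1 probe set of high signal differed by -0.01 ± 0.15. Further probe sets of Notch3 and Il2ra differed by 0.29 ± 0.15 and 0.78 ± 0.55. In limma, each of these had an unadjusted p above 0.05, so the lean depends on the probe set.

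Il2ra, the interleukin 2 receptor alpha chain CD25 and a Notch target, read 11.56, 11.07, 10.97 and 11.45 in E2A-deficient tumours, against 8.66 and 8.94 in Tal1 and 10.62, 9.33 and 11.75 in Tal1-LMO2 tumours. The Tal1-LMO2 range took in all 4 E2A-deficient values, while both Tal1 tumours lay under them. Hes1, a repressor and Notch target, behaved alike: 10.22 to 10.77 in E2A-deficient tumours, against 8.09 and 9.05 in Tal1 and 10.38, 9.82 and 10.79 in Tal1-LMO2 tumours. Dtx1, an E3 ligase and Notch target, read 12.26 to 13.32 in E2A-deficient tumours, against 11.28 and 11.31 in Tal1 and 12.43 to 12.54 in Tal1-LMO2 tumours. Of these 3, Il2ra and Hes1 were called against the Tal1 tumours alone (Hes1 1.90, adjusted p 0.0467).

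**Figure D4:**
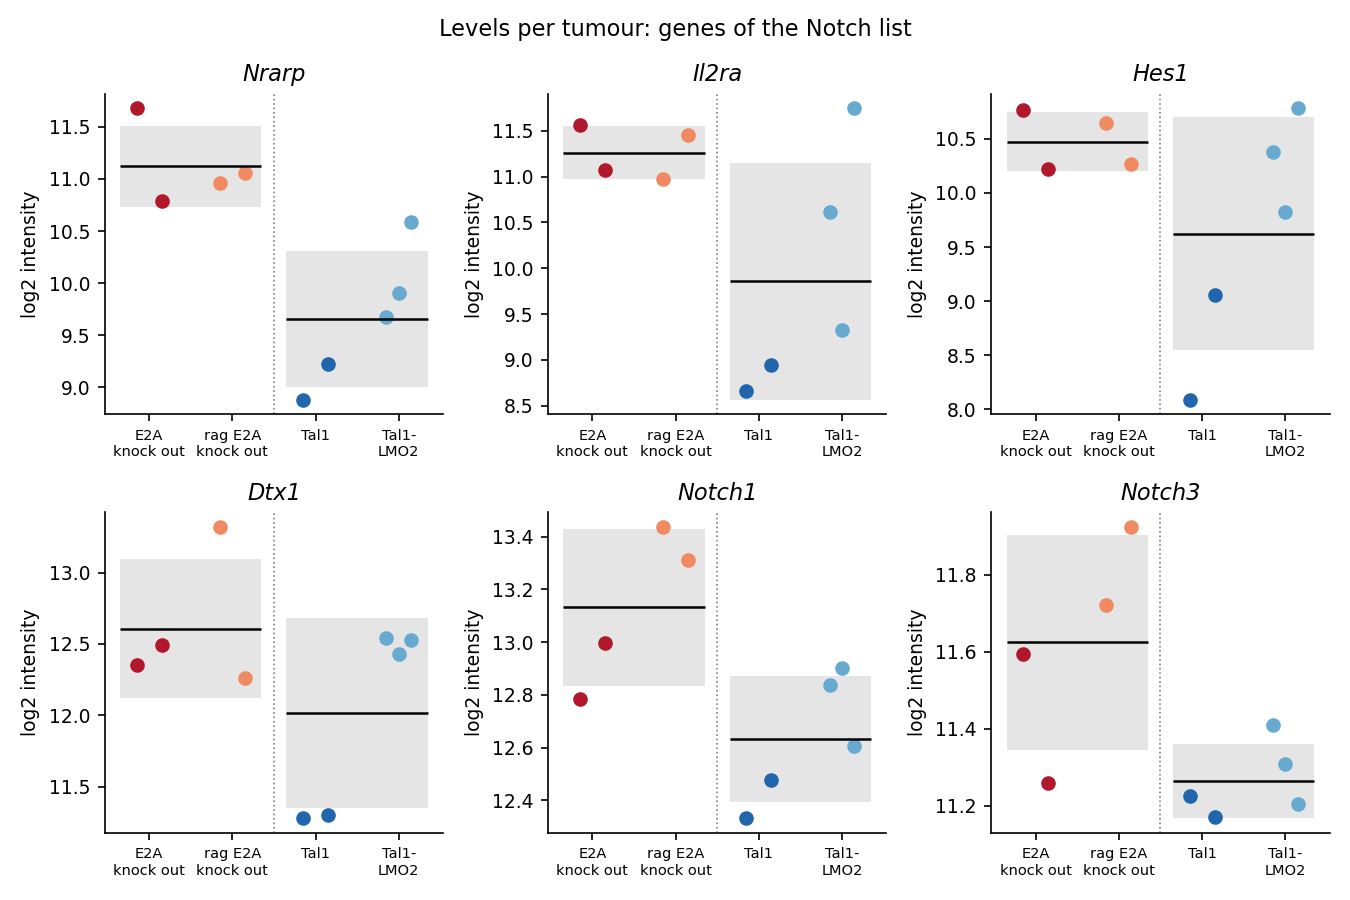
Log2 intensity (vertical axes) of 6 genes of the Notch list in each tumour, by genotype, with class means (lines) and 1 SD (bands). Nrarp does not overlap between the classes; for Il2ra, Hes1 and Dtx1 the 2 Tal1 tumours are the lowest, and the Tal1-LMO2 tumours spread up into the range of the E2A-deficient tumours.

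Genes of mitosis leaned the opposite way by small amounts. Of 19 tested members none was called, and 6 (Nusap1, Kif11, Bub1, Bub1b, Ttk and Tpx2) were lower at an unadjusted p under 0.05, where 2.86% of all genes were. The median difference was -0.21. Nusap1, a spindle protein, read 11.24, 10.86, 10.89 and 11.33 in E2A-deficient tumours, against 11.47 to 11.61 in Tal1-driven tumours (-0.48). Kif11, the spindle motor, differed by -0.48. The 21 DNA replication genes had a median of -0.13, with Pola1, a polymerase subunit, at -0.40 and Cdc45, a helicase component, at -0.29.

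Across the 30 gene lists, 245 members were tested, none was called between the classes, and 26 (10.6%) had an unadjusted p under 0.05, against 5.43% of all genes. List medians ran from -0.62 for 3 natural killer genes (Nkg7 -0.80, Tyrobp -0.62) to 0.46 for the Id genes. Mature T-cell genes had a median of 0.18 (H2-D1 0.75 and H2-K1 0.69, class I molecules) and homing genes 0.35 (Ccr7 0.66, Ccr9 0.60). Early progenitor genes had -0.07, and the widest, Il2ra (1.40) and Cd44 (0.47), were the only 2 of 9 tested that were positive. Genes of T-cell receptor signalling had 0.12 and T lineage markers 0.15 (Thy1 0.60). Genes induced by the T-cell receptor had -0.10, with 3 of 10 tested positive, among them the widest (Ier2 0.59, Dusp2 0.39). Class II genes had 0.04 (H2-DMa 0.58, Cd74 -0.39) and interferon genes -0.06 (Usp18 0.69, Ifit2 -0.47). Cyclins and their inhibitors had -0.02 (Ccnd2 -1.17, Rb1 -0.36), oncogenes 0.17 (Evi5 0.55), survival genes 0.00 (Bid 0.33) and T commitment factors 0.04 (Lef1 0.48). Innate and cytotoxic genes had -0.15, ribosome biogenesis genes -0.02 (Nop58 -0.20), genes of the double positive stage 0.00, dendritic markers -0.06 and erythroid markers -0.32 (Alas2 -0.72). Myeloid markers had -0.23 (Lyz2 -0.83), stromal markers -0.20 (Cdh5 -0.54) and B lineage markers -0.23 (Cd79a -0.30).

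Both classes were then placed against the 9 other TLX1-negative backgrounds. E2A-deficient tumours had 909 genes called higher (9.93% of 9156) and 1497 lower (16.3%), together 26.3%. Tal1-driven tumours had 1273 higher (13.9%) and 1536 lower (16.8%), together 30.7%. Without rag E2A knock out replicate 4 the E2A-deficient counts were 594 and 806, without replicate 3 the lower count was 957, and without E2A knock out replicate 1 the higher count was 579. With arrays centred on their medians the counts were 1647 higher and 1008 lower for E2A-deficient, and 1933 higher and 1082 lower for Tal1-driven tumours, so the balance of directions depends on scaling. Both comparisons share the other backgrounds, so no overlap between them is given and named genes are set side by side.

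Highest in both was H2-T3, a nonclassical class I molecule of thymocytes, by 3.88 ± 0.63 in E2A-deficient and 3.46 ± 0.57 in Tal1-driven tumours (SE; adjusted p 6.7e-05 and 6.1e-05). Between the classes it overlapped, at 12.28 to 12.83 in E2A-deficient and 10.73 to 12.84 in Tal1-driven tumours. H2-T18, of the same gene cluster, was higher by 1.98 in E2A-deficient and 1.57 in Tal1-driven tumours. Ifi202b, an interferon-inducible gene whose level is known to differ between inbred mouse strains, was higher by 3.47 in E2A-deficient tumours (adjusted p 2.4e-05) and was called higher in Tal1-driven tumours too (2.9e-05), with levels of 10.55 to 12.04 in E2A-deficient and 9.17 to 12.02 in Tal1-driven tumours. Its relative Ifi204 was higher by 2.27 in E2A-deficient and 2.74 in Tal1-driven tumours. Mndal, of the same family, was lower, at -2.39 in E2A-deficient and -3.26 in Tal1-driven tumours. It read 10.79 in E2A knock out replicate 1 and 6.94 to 7.65 in the other 8 tumours. Gdpd3, a lysophospholipase, Spsb4, a ubiquitin ligase adaptor, Adat2, a tRNA deaminase, and Scara3, a scavenger receptor, were higher by 2.70, 2.07, 1.56 and 2.22 in E2A-deficient and by 2.14, 1.93, 1.53 and 1.46 in Tal1-driven tumours.

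Lower in both by the rule, beside Mndal, were 7 genes. Col3a1, a fibroblast collagen, was lower at -2.83 in E2A-deficient and -2.39 in Tal1-driven tumours, Fabp4 at -3.21 and -1.94, and Dcn at -2.41 and -1.78. The complement genes C1qb and C1qc of macrophages were at -2.21 and -2.11 in E2A-deficient and -1.82 and -1.74 in Tal1-driven tumours. Ccl8, a chemokine, was at -1.77 and -2.04, and H2-Eb1, a class II chain, at -2.26 and -2.28. Of the 8 myeloid markers 7 were called lower in E2A-deficient tumours and 6 in Tal1-driven tumours, where 16.3% and 16.8% of all genes were, and their sums of 4337 to 8950 in E2A-deficient and 4713 to 15180 in Tal1-driven tumours lay mostly under the 12087 to 31403 of the other backgrounds. Their part in these differences was not tested.

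Against only the 7 other arrays in the same cluster of bacterial controls, an alternative chosen after the data were seen, E2A-deficient tumours had 24.6% of genes called (7.61% higher, 17% lower) and Tal1-driven tumours 26.6% (10.2% higher, 16.4% lower). There, 16 of these 16 genes stayed called in E2A-deficient and 15 of 16 in Tal1-driven tumours, the exception being Scara3 (adjusted p 0.114). These 7 arrays hold no LMO1, Olig-LMO1, beta-catenin, Ikaros Plastic or Cdkn2a knock out tumour. The reference genotypes thus changed together with the array set. The beta-actin difference of the 2 p53 knock out arrays was 1.53 and 1.09 log2 units. Against all 9 other backgrounds, Ccl8 in E2A-deficient tumours lost its call without E2A knock out replicate 1 or 2 (adjusted p up to 0.0526). Scara3 in Tal1-driven tumours lost it without Tal1 replicate 2 or Tal1-LMO2 replicate 2 (up to 0.129). With the other arrays as 1 group, the E2A-deficient calls of Mndal (adjusted p 0.252), Ccl8 (0.107) and H2-Eb1 (0.0674) were lost.

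**Figure D5:**
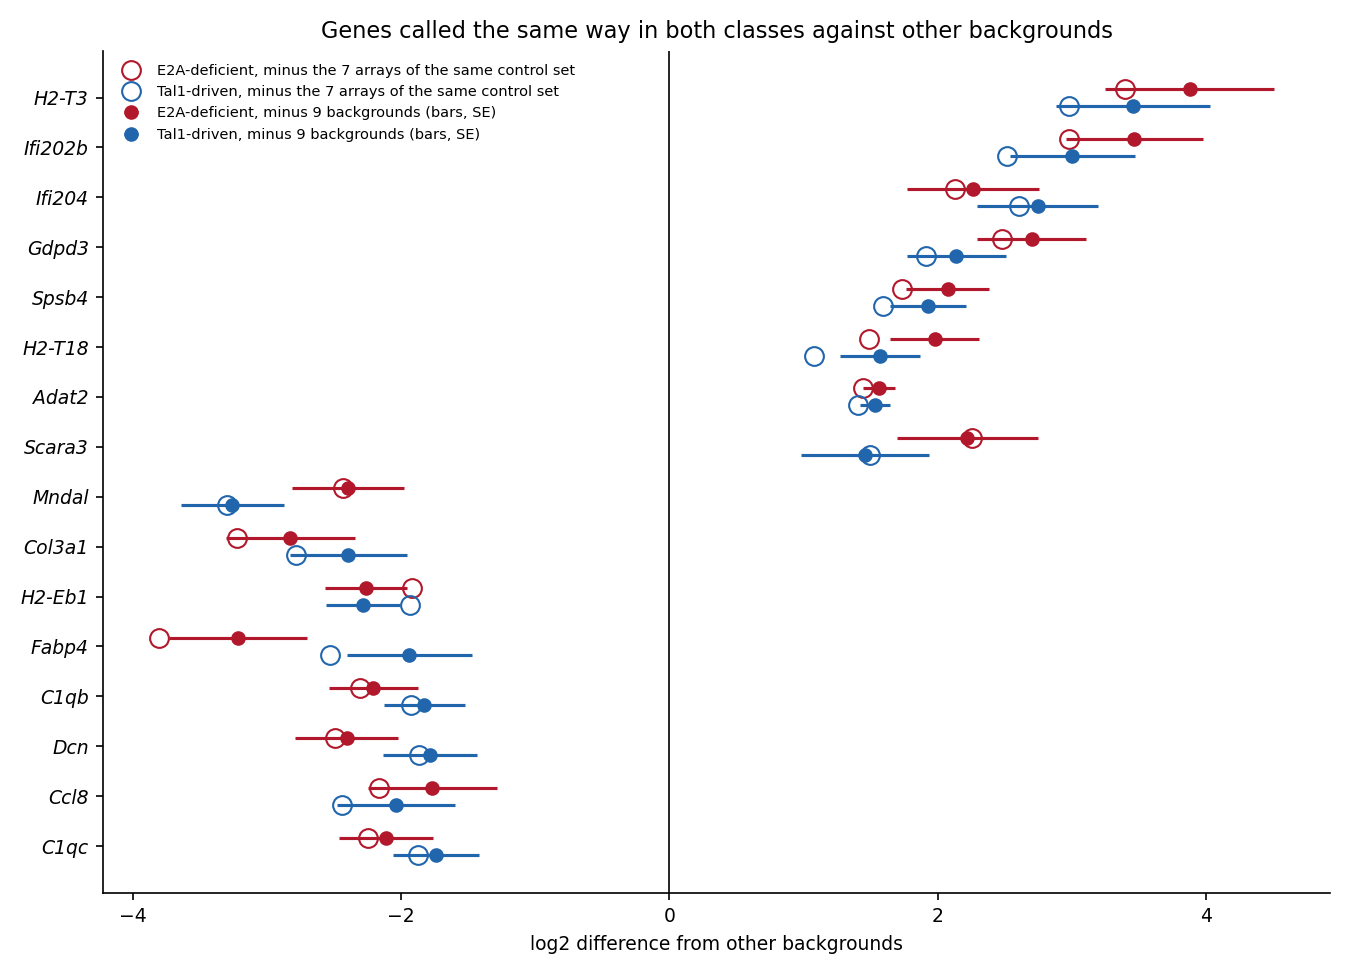
Log2 differences (horizontal axis) of E2A-deficient (red) and Tal1-driven (blue) tumours from 9 other backgrounds for the 16 genes named by rule, with SE bars; open circles are differences from the 7 arrays of the same bacterial-control cluster. Every gene lies on the same side of 0 for both classes, which the choice of genes fixes, and open circles stay on that side.

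In this wider frame the Notch list had 6 of 15 members called higher and 1 lower in E2A-deficient tumours, where 9.93% of all genes were called higher and 16.3% lower. In Tal1-driven tumours 3 were higher, where 13.9% of all genes were. Within the same bacterial-control cluster it had 2 higher and 1 lower in E2A-deficient tumours, where 7.61% and 17% of all genes were. There, 0 were higher and 2 lower in Tal1-driven tumours, where 10.2% and 16.4% of all genes were. Notch1 was higher by 1.55 in E2A-deficient (adjusted p 0.00887) and by 1.04 in Tal1-driven tumours (0.0412). Notch3, a further receptor, was higher by 1.07 and 0.71. A further Notch3 probe set differed by 0.18 in E2A-deficient and -0.11 in Tal1-driven tumours, and one of Notch1 by 1.04 and 1.05. With the mean of all probe sets, Notch3 lost its call in Tal1-driven tumours (0.30, limma adjusted p 0.25). Nrarp was higher by 1.89 in E2A-deficient tumours (adjusted p 0.00114) and differed by 0.42 in Tal1-driven tumours (0.399). In Tal1-driven tumours the calls of Notch1 and Notch3 were lost without any 1 of the 5 tumours (adjusted p up to 0.104 and 0.0811). Within the same bacterial-control cluster, Notch1 and Notch3 kept the call in E2A-deficient tumours (0.73 and 0.74) and lost it in Tal1-driven tumours (0.23 and 0.38). Nrarp in E2A-deficient tumours lost the call there (1.15, adjusted p 0.123). With the other arrays as 1 group, E2A-deficient tumours lost the calls of Notch1 (adjusted p 0.135) and Notch3 (0.0652), and Tal1-driven tumours lost them too (0.193 and 0.119). Id3 was lower at -1.38 in E2A-deficient and -1.90 in Tal1-driven tumours, and Lmo2 at -1.12 and -0.82. Id3 in E2A-deficient tumours lost the call without E2A knock out replicate 2 or either rag E2A knock out tumour (adjusted p up to 0.235), as it did under 6 other settings, with centring (0.0511) and within the same bacterial-control cluster (0.135) among them. Lmo2 in Tal1-driven tumours lost it without Tal1-LMO2 replicate 2 (0.0525) and within that cluster (0.0572). Runx1, a core T-cell factor, was at -0.46 and -0.58 in the same order. Of the 21 DNA replication genes, 1 was called higher in E2A-deficient tumours, under the 9.93% of all genes, and 9 in Tal1-driven tumours, against 13.9% of all genes.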

How the data were processed

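RNA of tumours had been extracted with Trizol and hybridised as biotin cRNA to oligonucleotide arrays, per the labels' protocols. The authors deposited signal intensity for 22690 probe sets on a linear scale; no source used here states their normalization, which can shift overall levels. All 53 columns were used, as log2. Probe sets with 1 symbol (20380) gave 12393 genes, each read by its probe set of highest mean. Genes had to exceed the median of their array in 3 arrays or more, which 9156 did. They were tested two-sided with limma 3.58.1 (lmFit and eBayes, R 4.3.3), and p-values were adjusted by Benjamini-Hochberg across them. The classes were fitted on their 9 arrays; against the mean of other backgrounds, the 32 other arrays joined, with TLX1 arrays left out. A difference is the first class named minus the other. Tests were checked on simulated data. The number of arrays limits the precision.

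The samples, lists and tests were chosen with earlier results of these data known. Named genes followed a rule: called genes without overlap (up to 12 a direction), filled up to 8 a direction by the largest differences without overlap; up to 8 a direction called alike in both classes against other backgrounds; and up to 4 called, or else 2, members a list. Unnamed transcripts, receptor segments and genes on X or Y were left out of the rule, except as list members. Genes named outside the rule are marked as chosen after their values were seen. Replicate numbers were not taken to pair the samples (correlations of deviations -0.307 to 0.264, not all over 0.1). Alternatives changed the filter, the probe set rule, the scaling, the variance model, the arrays used, a beta-actin covariate and a replicate block. Promoters are RefSeq's on GRCm38.p6; 7382 of 9156 genes matched. Python 3.11.15 and Matplotlib 3.10.9 drew the plots.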

Additional observations from a re-analysis of the deposited data

Results flagged for a closer look

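Between the classes, the 5 called genes differed by the test itself: Gjb2 by 0.93, Rictor by -1.94, Lalba by -1.60, Kdf1 by -0.91 and Gpr162 by -0.70 (E2A-deficient minus Tal1-driven, log2). In 68 groups examined for a tumour far from the rest of its class, 2 stood out, where chance gives about 1 in 20. Cyth3 read 9.81 in E2A knock out replicate 1, against 10.36 to 10.46 in the other E2A-deficient tumours, and Rictor read 10.13 in Tal1 replicate 2, against 9.54 to 9.63 in the other Tal1-driven tumours.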

How the results depend on the processing

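Between the classes, with 1 gene higher and 4 lower in E2A-deficient tumours, counts stayed within 1.5 times without a filter, with the mean of all probe sets, quantile scaling, median centring and trended robust variance. A stricter filter left 6844 genes and called 0 in either direction. It removed Rictor, Lalba, Kdf1 and Gjb2, so their calls were not retested there. Gpr162 stayed and lost its call (limma adjusted p 0.0868). The beta-actin covariate called 7 lower, means of the 4 genotypes 4 higher and 15 lower, and the spread of all 53 arrays 4 and 7. With the spread of all 53 arrays, Gjb2 and Kdf1 lost their calls (limma adjusted p 0.211 for Kdf1). Of the genes called there, 0 of the 4 higher and 3 of the 7 lower were called in the main fit. Leaving out a genotype gave 3 higher and 2 lower without E2A knock out, 2 lower without rag E2A knock out, 5 higher and 56 lower without Tal1-LMO2, and 0 higher without Tal1 tumours. Leaving out 1 tumour gave 0 to 5 higher and 2 to 6 lower. The replicate block called 0 higher and 0 lower (491 at an unadjusted p under 0.05), with Rictor and Lalba at an adjusted p of 0.0709; same-numbered samples deviated together between Tal1 and Tal1-LMO2 tumours (correlations 0.212 and 0.264) but not in pairs with an E2A-deficient genotype (-0.307 to -0.027).

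Against other backgrounds, centring gave 1647 higher in E2A-deficient and 1933 in Tal1-driven tumours. Other arrays as 1 group gave 285 higher and 361 lower in E2A-deficient, and 557 and 481 in Tal1-driven tumours. With TLX1 arrays, 970 were lower in E2A-deficient tumours. Leaving out 1 tumour gave 579 to 684 higher and 806 to 1241 lower in E2A-deficient, and 888 to 1152 and 1055 to 1363 in Tal1-driven tumours. The replicate block gave 785 and 1215, and 1235 and 1673. In the same bacterial-control set Lmo1 in E2A-deficient tumours turned to 0.29, from -0.81 against all. That set holds no LMO1 or Olig-LMO1 transgenic array, and over all 32 other arrays Lmo1 ran from 7.62 to 13.34. The part of the missing backgrounds in this change was not tested. Signal near background limits Tal1, Lmo2 and Id4, which lie under the array median.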

Other observations

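Gh, growth hormone, chosen after its values were seen, read 7.74 to 7.89 in E2A-deficient tumours and 8.03 to 8.33 in Tal1-driven tumours, a difference of -0.39 that did not pass the threshold (limma adjusted p 0.444). It was highest in LMO1 tumours, at 8.92 to 9.79, and Olig-LMO1 tumours, at 8.60 to 9.82, with beta-catenin tumours at 8.37 to 8.48. Itm2a, a membrane protein of thymocytes on the X chromosome, was also chosen after its values were seen. It did not overlap between the classes, at 11.34 to 12.24 in E2A-deficient and 10.34 to 11.24 in Tal1-driven tumours (difference 1.04, adjusted p 0.444).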
